A study of Mus musculus with 6 samples.

Results

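The genes described here are 42 regulators and structural components of mitosis, taken by symbol from a list. The list, of mitotic kinases, cyclins, condensin subunits and cytokinesis proteins, was chosen with earlier results of these data known. All 42 were found among the 55571 entries of a table of RNA sequencing counts. The table covers 6 libraries of E0771, a mouse mammary carcinoma cell line: 3 from cells expressing wild-type Malt1 (Malt1-WT) and 3 from cells carrying a vector control. Both groups were at basal condition, with no stimulus named, and share the E0771 background. The Malt1 protein is a paracaspase that acts both as scaffold and as protease on the way to NF-kB, and the comparison asks how expressing it bears on the transcriptome. The sources used here do not say whether each group is 1 clone or a pool, nor which vector or promoter was used.

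Mitosis is driven by cyclin B bound to the kinase Cdk1, with the Polo and Aurora kinases acting on centrosomes, spindle and kinetochores. Chromosomes are packed by condensin and topoisomerase II, separase then cuts the cohesin that holds sister chromatids once Cdc20 has switched on the anaphase-promoting complex, and the cell is divided by an actomyosin ring. Most of these genes are transcribed in G2 and mitosis, under Foxm1 and the B-Myb and MuvB complex, and are held down in resting cells by the DREAM complex at a promoter element called the cell cycle genes homology region (CHR), often beside CCAAT boxes bound by NF-Y. In tumour samples these genes are widely used as markers of the dividing fraction of cells.

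Promoter sequences are shown for 5 members because the members moved together, and these 5 span the range of the change. They are RefSeq windows of GRCm38.p6 that run from 250 bases before to 50 bases after the annotated start, written 5′ to 3′ on the gene's strand. Capitals mark 3 elements, searched on both strands with no overlap between them in these windows. The CHR was read as TTTGAA or, in its variant form, TTCGAA. The CCAAT box was read by its own letters. The E2F-type element was read as TTTCGCG, also in the form TTTGGCG and also in the form TTTCCCG. Plk1 (chr7:122159185-122159484, plus strand), Cdc20 (chr4:118437294-118437593, minus strand) and Mki67 (chr7:135716330-135716629, minus strand) had the 3 largest falls, Ccnb2 (chr9:70421505-70421804, minus strand) lay near the middle, and Cdc25a (chr9:109875329-109875628, plus strand) had the smallest.
Plk1: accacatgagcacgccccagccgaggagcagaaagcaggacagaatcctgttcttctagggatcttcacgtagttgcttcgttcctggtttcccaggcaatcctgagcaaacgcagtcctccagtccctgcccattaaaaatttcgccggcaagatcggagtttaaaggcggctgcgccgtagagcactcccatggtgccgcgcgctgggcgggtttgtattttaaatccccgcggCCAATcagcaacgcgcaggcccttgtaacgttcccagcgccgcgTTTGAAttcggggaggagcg
Cdc20: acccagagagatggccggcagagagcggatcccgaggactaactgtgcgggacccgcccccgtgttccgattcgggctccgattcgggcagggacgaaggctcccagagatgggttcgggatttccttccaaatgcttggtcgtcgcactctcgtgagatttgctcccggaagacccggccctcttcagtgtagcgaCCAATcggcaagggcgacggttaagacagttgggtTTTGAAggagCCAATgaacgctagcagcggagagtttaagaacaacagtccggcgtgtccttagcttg
Mki67: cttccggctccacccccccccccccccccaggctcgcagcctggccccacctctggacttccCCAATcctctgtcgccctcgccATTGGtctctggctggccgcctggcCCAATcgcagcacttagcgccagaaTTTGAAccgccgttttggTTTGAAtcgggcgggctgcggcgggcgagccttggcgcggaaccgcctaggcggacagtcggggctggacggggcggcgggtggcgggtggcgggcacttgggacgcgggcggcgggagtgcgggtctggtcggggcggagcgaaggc
Ccnb2: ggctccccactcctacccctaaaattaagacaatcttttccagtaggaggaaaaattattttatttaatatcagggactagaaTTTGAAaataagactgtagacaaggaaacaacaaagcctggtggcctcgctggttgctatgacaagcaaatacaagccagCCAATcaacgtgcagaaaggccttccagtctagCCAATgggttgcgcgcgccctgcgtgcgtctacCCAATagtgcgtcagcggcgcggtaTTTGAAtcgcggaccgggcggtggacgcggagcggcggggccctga
Cdc25a: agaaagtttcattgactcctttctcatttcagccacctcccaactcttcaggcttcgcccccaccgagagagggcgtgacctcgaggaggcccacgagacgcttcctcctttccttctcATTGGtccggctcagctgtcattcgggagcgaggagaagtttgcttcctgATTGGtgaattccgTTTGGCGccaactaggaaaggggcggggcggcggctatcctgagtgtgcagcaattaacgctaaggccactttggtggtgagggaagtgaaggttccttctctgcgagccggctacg
A CHR stood in the first 4 windows and in none of the letters of the Cdc25a window, which held 2 CCAAT boxes and the E2F-type element TTTGGCG instead. In Ccnb2 the 3 CCAAT boxes began at positions -87, -54 and -21 and lay between a CHR at position -167 and another at position 5. In Cdc20 a CHR at position -18 lay between CCAAT boxes at -53 and -8, and in Plk1 a CCAAT box at -14 was followed by a CHR at 31.

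Total counts ranged from 17601656 to 20543778 per library. Malt1 itself averaged 305 ± 6.49 CPM (a gene's count relative to the TMM-scaled total of its library) in Malt1-WT and 30.0 ± 1.32 CPM in the vector control (SD, n = 3 each; log2 fold change 3.34), the direction the labels give. These counts do not separate the introduced from the endogenous gene. Of 9 epithelial and carcinoma markers only Krt8, Epcam and Esr1 had enough counts to be tested, with Krt8 at 59.7 CPM in Malt1-WT and 68.6 CPM in the vector control, whereas Krt18, Krt7, Krt19, Cdh1, Cldn3 and Cldn7 were each under 1 CPM on average in both groups. Of 8 fibroblast and mesenchymal markers 7 were tested, 4 lower and 1 higher, with a summed level of 2170 to 2176 CPM in Malt1-WT and 3579 to 3731 CPM in the vector control, most of it Vim (1658 CPM in Malt1-WT and 3087 CPM in the vector control). The summed level of 9 leukocyte markers was 27.4 to 31.6 CPM in Malt1-WT and 22.3 to 25.8 CPM in the vector control, and that of 5 endothelial markers 10.3 to 10.8 CPM in Malt1-WT and 4.58 to 5.84 CPM in the vector control, with the endothelial marker Pecam1 called higher (log2 fold change 1.02). Within the leukocyte list, Adgre1 (21, 32 and 28 counts in Malt1-WT, against 2, 1 and 0 in the vector control) and Cd68 (log2 fold change 1.67) were higher, and Lyz2 (-2.33) and Fcer1g (-0.28) lower. Tyrobp and Emcn had 0 counts in all 6 libraries, and Ptprc had 4 counts in Malt1-WT and 3 in the vector control. The part of these markers in the results below was not tested.

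All 42 mitotic genes fell in Malt1-WT. Each was tested, each had an edgeR quasi-likelihood adjusted p of at most 3.15e-08, and in each the 3 Malt1-WT libraries lay below all 3 vector control libraries. Across all 13594 tested genes, 30.2% were called lower at an adjusted p under 0.05 and 31% higher, and in 32% the Malt1-WT libraries all lay below those of the vector control. Since the 42 genes were chosen with earlier results of these data known, shares over all tested genes, here and below, are given as description only. The members' median log2 fold change was -1.56, a level 2.95 times lower, against a median of -0.00286 over all tested genes, and 1.82% of tested genes had a value below the members' median. In total the 42 genes held 0.292% ± 0.00436 of a library's counts in Malt1-WT and 0.871% ± 0.00598 in the vector control (SD, n = 3 each). In bulk RNA, fewer cells in mitosis and less of these transcripts per cell cannot be told apart.

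The falls differed in size from gene to gene. They ran from a log2 fold change of -2.50 in Plk1 to -0.38 in Cdc25a, with 6 genes more than 4-fold lower, 32 between 2- and 4-fold lower and 4 less than 2-fold lower. When edgeR's glmTreat required more than a 2-fold change, 37 of 42 members passed as lower, where 2.52% of all tested genes did. The 5 that did not pass were Nek2, Pttg1, Aspm, Mybl2 and Cdc25a. Just inside that limit, Incenp had an adjusted p of 0.0465 in edgeR's glmTreat, and it passed in 7 of 13 alternative settings. Measured as rank from the lowest log2 fold change upward, Plk1 was 35th and Cdc25a 2649th of the 13594 tested genes.

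**Figure D1:**
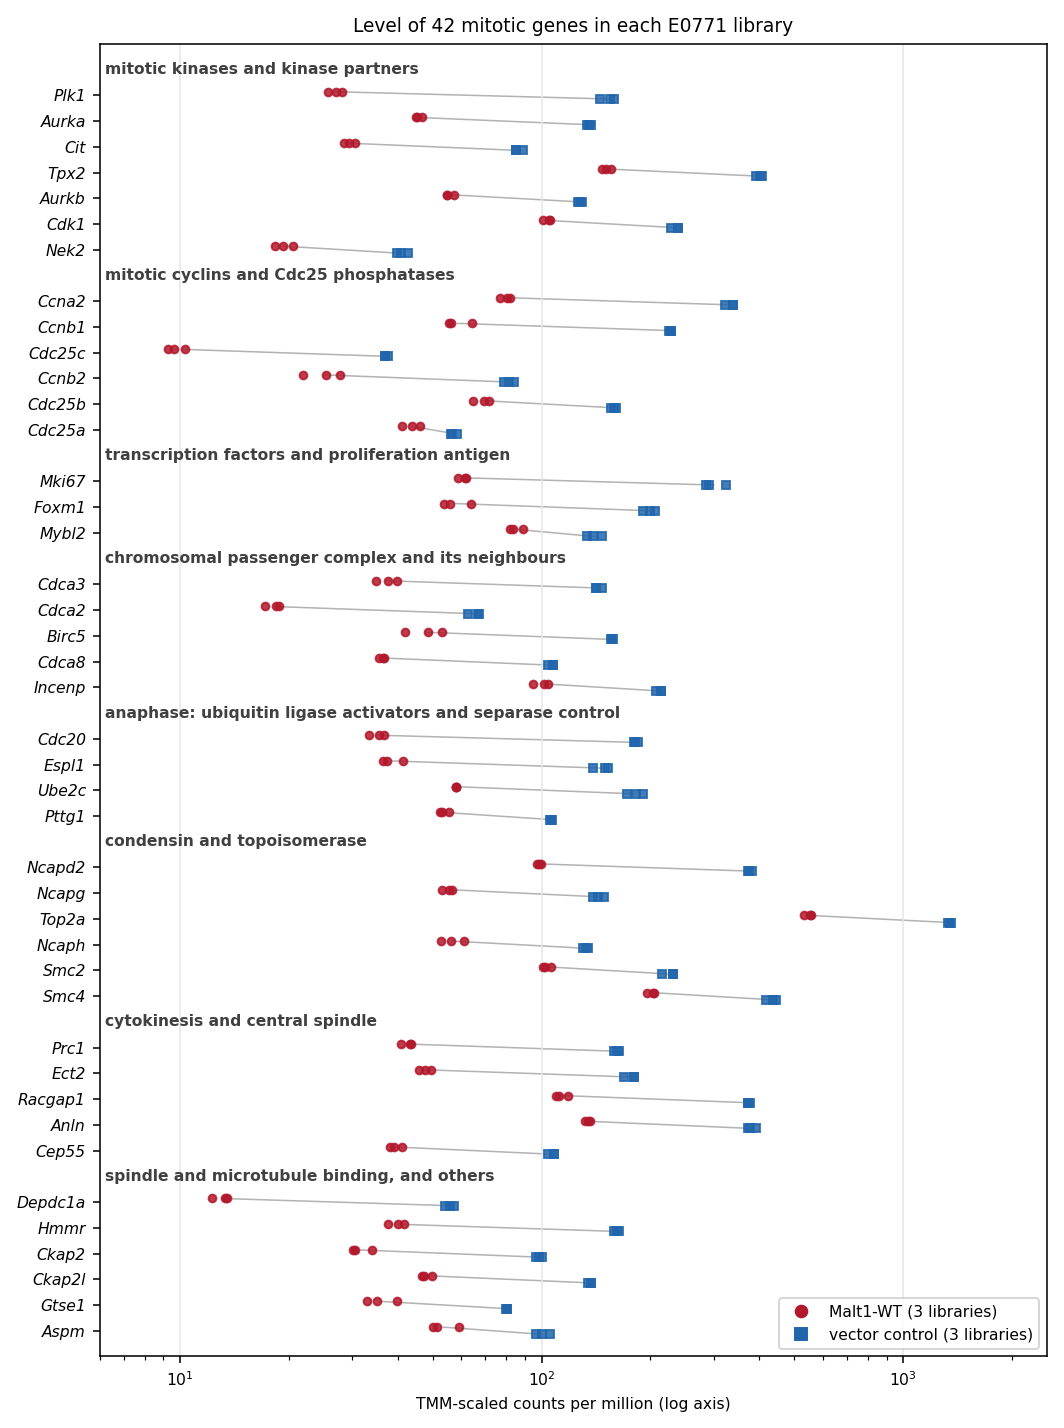
Level of each of the 42 mitotic genes in TMM-scaled CPM (log axis), 1 point per library, with Malt1-WT as circles and the vector control as squares; grey lines join the group means. In each gene the 3 Malt1-WT libraries sit left of the 3 vector control libraries, and the gap is narrowest for Cdc25a.

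Among the mitotic kinases and their partners, 7 of 7 fell, with a median log2 fold change of -1.41. Plk1 (chromosome 7, 122159439 to 122169873, plus strand, GRCm38), the Polo-like kinase of centrosome maturation and mitotic entry, had 27.1, 28.2 and 25.6 CPM in Malt1-WT and 145, 154 and 159 CPM in the vector control. Its log2 fold change was -2.50 (SE 0.049, edgeR adjusted p = 3.66e-41), 5.66 times lower, and the groups lay far apart. Aurka, the kinase of spindle pole assembly, had 45.3, 44.98 and 46.7 CPM in Malt1-WT and 134, 136 and 137 CPM in the vector control, a log2 fold change of -1.57. Within each group its libraries were almost level. Tpx2, which activates Aurka on spindle microtubules, stood at 151 ± 4.46 CPM in Malt1-WT and 400 ± 7.69 CPM in the vector control (log2 fold change -1.41). Aurkb, the kinase of the chromosomal passenger complex, changed by -1.20 and Cdk1, the central mitotic kinase, by -1.18, while the citron kinase gene Cit, which acts in abscission, changed by -1.55. Nek2, a kinase of centrosome separation, fell least in this group, with 18.3, 19.3 and 20.5 CPM in Malt1-WT and 41.0, 39.9 and 42.8 CPM in the vector control (log2 fold change -1.09, SE 0.069), and was not past 2-fold (glmTreat adjusted p = 0.332).

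Cyclins and the Cdc25 phosphatases that activate Cdk1 all fell too, 6 of 6, but over the widest range of the 8 role groups (log2 fold changes of -2.06 to -0.38). Ccna2, the cyclin of S phase and mitotic entry, had 80.5, 82.1 and 77.0 CPM in Malt1-WT and 337, 338 and 322 CPM in the vector control (log2 fold change -2.06, SE 0.036, edgeR adjusted p = 1.66e-43). Ccnb1, the main mitotic cyclin, had 64.2, 56.3 and 55.3 CPM in Malt1-WT and 229, 228 and 225 CPM in the vector control, a log2 fold change of -1.95. Both cyclins were thus 3.87 to 4.16 times lower, with no overlap of libraries. Ccnb2, a second B-type cyclin, changed by -1.70. The 3 phosphatase genes went apart in size. Cdc25c changed by -1.93, Cdc25b by -1.21 and Cdc25a, which acts from G1 onward as well as at mitotic entry, by -0.38 (SE 0.055, edgeR adjusted p = 3.15e-08). Cdc25a had 46.3, 43.8 and 41.2 CPM in Malt1-WT and 56.1, 56.6 and 58.5 CPM in the vector control, so its groups were close but still separate. A pseudogene of each B-type cyclin, Ccnb1-ps (3 to 33 counts per library) and Ccnb2-ps (32 to 69), can share reads with its parent gene.

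The proliferation antigen and the transcription factors of the mitotic programme were lower in 3 of 3 cases. Mki67, which encodes the Ki-67 protein that coats mitotic chromosomes, had 61.9, 61.6 and 58.7 CPM in Malt1-WT and 323, 291 and 285 CPM in the vector control (log2 fold change -2.30, SE 0.041, edgeR adjusted p = 2.93e-42). Vector control replicate 1 was the highest of the 6 libraries, and its margin over the other two was small beside the gap between groups. Foxm1, an activator of G2 and mitotic genes, had 53.9, 63.9 and 56.0 CPM in Malt1-WT and 206, 200 and 191 CPM in the vector control (-1.78, SE 0.045). Mybl2, which encodes B-Myb and is itself known as an E2F target expressed from late G1, changed by -0.72 (SE 0.041), with 81.9, 88.6 and 83.2 CPM in Malt1-WT and 139, 134 and 147 CPM in the vector control. The smaller fall of Mybl2 was not past 2-fold (glmTreat adjusted p = 1).

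In the chromosomal passenger complex and the genes named with it, 5 of 5 fell. Birc5 (survivin) and Cdca8 (borealin), which target the complex to centromeres, changed by -1.71 and -1.56, and Incenp, the scaffold that binds and activates Aurkb, by -1.08. Incenp had 104, 102 and 94.4 CPM in Malt1-WT and 208, 215 and 214 CPM in the vector control. Birc5 was the least even of these within Malt1-WT, at 53.0, 48.5 and 41.99 CPM, against 156, 157 and 157 CPM in the vector control. Cdca3, known as a trigger of mitotic entry through degradation of Wee1, had 34.8, 39.8 and 37.5 CPM in Malt1-WT and 141, 147 and 141 CPM in the vector control (-1.93, SE 0.047). Cdca2, which targets a protein phosphatase to chromatin, had 18.9, 17.2 and 18.5 CPM in Malt1-WT and 67.2, 62.7 and 66.9 CPM in the vector control (-1.85). Both fell by more than 3-fold.

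Genes of the metaphase to anaphase step fell in 4 of 4 cases, with a median log2 fold change of -1.79. Cdc20 (chromosome 4, 118432901 to 118437352, minus strand, GRCm38), the activator of the anaphase-promoting complex, had 36.6, 35.6 and 33.3 CPM in Malt1-WT and 180, 185 and 182 CPM in the vector control. Its log2 fold change was -2.37 (SE 0.044, edgeR adjusted p = 2.47e-42). Espl1, which encodes separase, had 37.4, 41.3 and 36.6 CPM in Malt1-WT and 153, 139 and 150 CPM in the vector control, a log2 fold change of -1.93. Pttg1, which encodes securin, the inhibitor that keeps separase inactive until anaphase, had 55.3, 53.2 and 52.3 CPM in Malt1-WT and 106, 107 and 106 CPM in the vector control (-0.99, SE 0.045). Ube2c, the ubiquitin-conjugating enzyme of the anaphase-promoting complex, changed by -1.65 and was nearly constant within Malt1-WT, at 58.1, 58.0 and 57.8 CPM.

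Condensin I and topoisomerase II alpha were lower in 6 of 6 cases, with the smallest median fall of the 8 role groups, -1.26. Ncapd2, a HEAT-repeat subunit of condensin I, had 99.5, 98.7 and 97.0 CPM in Malt1-WT and 381, 371 and 374 CPM in the vector control (-1.93, SE 0.034, edgeR adjusted p = 1.16e-43). Its partner HEAT-repeat subunit Ncapg had 55.6, 56.7 and 53.2 CPM in Malt1-WT and 139, 149 and 144 CPM in the vector control (-1.38), and the kleisin Ncaph changed by -1.23. The ATPases Smc2 and Smc4, which both condensin complexes contain, changed by -1.13 and -1.11, and Smc4 had 195, 205 and 204 CPM in Malt1-WT and 446, 437 and 418 CPM in the vector control. The fitted changes of the 5 condensin I genes thus ran from -1.93 to -1.11. Top2a, the enzyme that untangles sister chromatids, was the most abundant member, at 547 ± 13.6 CPM in Malt1-WT and 1342 ± 12.5 CPM in the vector control (-1.30).

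Cytokinesis and central spindle genes fell in 5 of 5 cases, all past 2-fold. Prc1, which bundles the antiparallel microtubules of the midzone, had 43.5, 43.3 and 41.0 CPM in Malt1-WT and 164, 162 and 159 CPM in the vector control (-1.92, SE 0.043). Ect2, the exchange factor that activates RhoA at the division plane, had 45.9, 47.6 and 49.4 CPM in Malt1-WT and 180, 169 and 180 CPM in the vector control (-1.89). Racgap1, a subunit of centralspindlin that recruits Ect2, changed by -1.72 and the ring scaffold anillin gene Anln by -1.50. Cep55, which brings the abscission machinery to the midbody, changed least, with 38.0, 41.0 and 39.1 CPM in Malt1-WT and 108, 104 and 108 CPM in the vector control (-1.44, SE 0.048). The range within this group was the narrowest of the 8 role groups.

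The remaining 6 genes, most of them encoding spindle or microtubule proteins, fell as well. Depdc1a had 13.4, 13.5 and 12.3 CPM in Malt1-WT and 55.8, 57.3 and 54.1 CPM in the vector control (-2.09, SE 0.070). Hmmr, a spindle pole and hyaluronan-binding protein gene, had 41.8, 37.6 and 40.0 CPM in Malt1-WT and 161, 164 and 159 CPM in the vector control (-2.02). The microtubule regulators Ckap2 and Ckap2l changed by -1.64 and -1.51, and Gtse1, a microtubule-associated protein gene of G2 and mitosis, by -1.16. Aspm, a spindle pole protein gene, had 50.1, 59.1 and 51.5 CPM in Malt1-WT and 105, 100 and 96.5 CPM in the vector control (-0.91, SE 0.050), and was not past 2-fold.

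**Figure D2:**
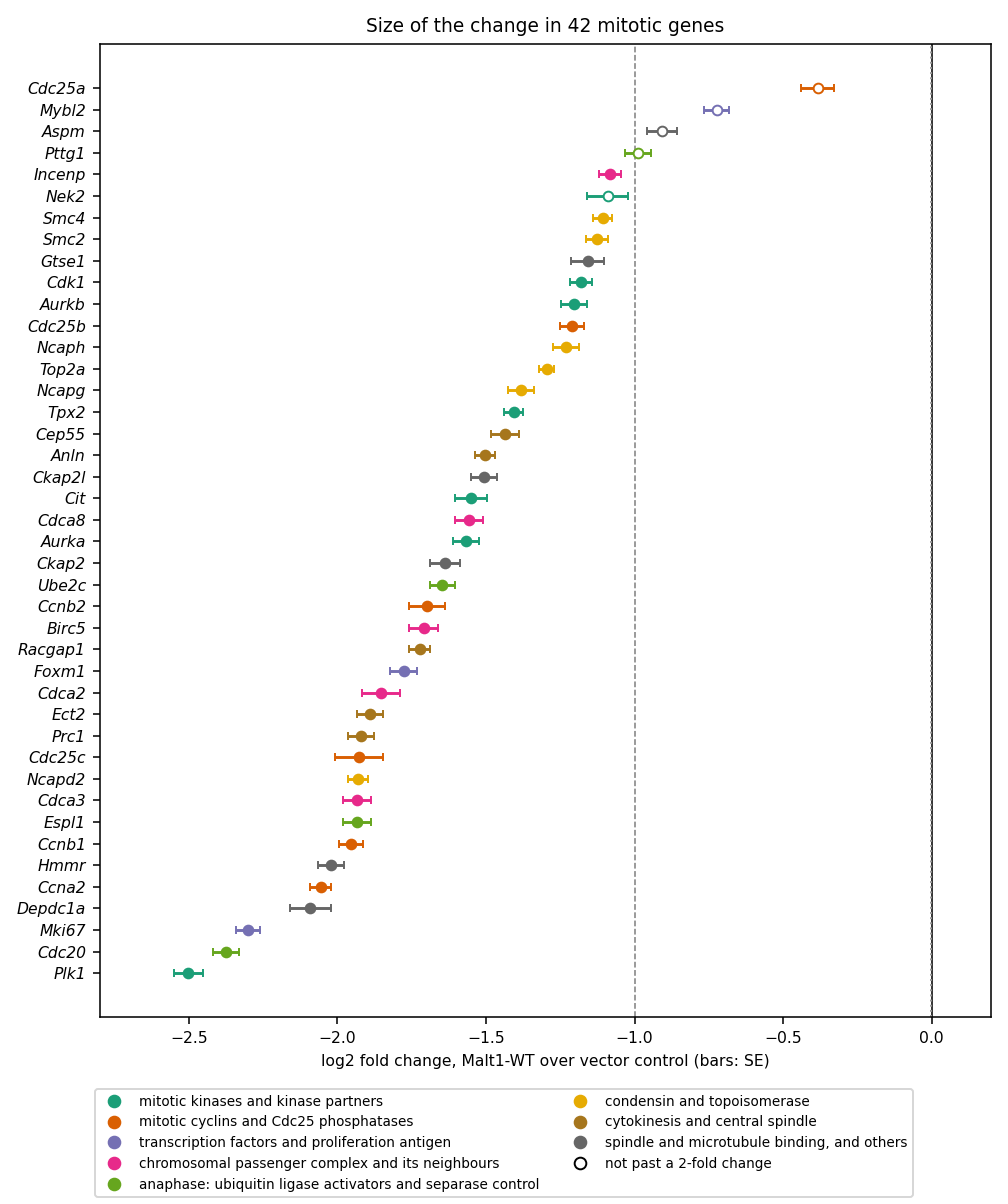
Log2 fold change of Malt1-WT over vector control for the 42 genes, with bars of 1 SE, coloured by role; open points are the 5 genes that were not past a 2-fold change (dashed line). Values run from -2.50 for Plk1 to -0.38 for Cdc25a, and members of most roles are spread along the range.

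Per length of the longest annotated transcript, Top2a had the highest level in both groups, 105 ± 2.60 CPM per kb in Malt1-WT and 257 ± 2.39 in the vector control. In Malt1-WT it was followed by Smc4 (46.6 ± 1.25), Tpx2 (34.6 ± 1.02), Pttg1 (32.0 ± 0.933) and Anln (29.1 ± 0.432), the last of which lay within 1 SD of Incenp (29.0 ± 1.44). In the vector control the next were Ccna2 (112 ± 2.94), Cdc20 (102 ± 1.42), Smc4 (100.5 ± 3.25) and Tpx2 (91.7 ± 1.76). Cdc20 and Smc4 lay within 1 SD of each other there, so their order is not set. In order of level per length among the members, Cdc20 was 18th in Malt1-WT and 3rd in the vector control, and Plk1 was 28th in Malt1-WT and 13th in the vector control. By contrast, Pttg1 was 4th in Malt1-WT and 15th in the vector control, and Mybl2 was 14th in Malt1-WT and 29th in the vector control. Cit was lowest in both, at 3.10 ± 0.109 CPM per kb in Malt1-WT and 9.07 ± 0.210 in the vector control. This order depended on the length used. With the union of annotated exons as the length, Top2a was again the highest (60.7 CPM per kb in Malt1-WT and 149 in the vector control) and Cit again the lowest, but Ccna2 was 5th in the vector control, at 81.4 CPM per kb, and Anln was 19th in Malt1-WT, at 14.8 CPM per kb. By that length Cdc20 was 11th in Malt1-WT and 2nd in the vector control, Plk1 26th in Malt1-WT and 7th in the vector control, Pttg1 4th in Malt1-WT and 12th in the vector control, and Mybl2 13th in Malt1-WT and 28th in the vector control.

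Ratios between proteins that bind each other directly were compared within each library, which makes them independent of library scaling. Of 12 such pairs, 9 had groups that did not overlap, 6 with a lower and 3 with a higher ratio in Malt1-WT. Such separation was common, since the log2 ratio did not overlap between groups in 63% of all pairs of tested genes and in 83.9% of the 861 pairs of members, so the count of 9 says nothing particular about binding partners. With 3 libraries per group the smallest 2-sided exact permutation p is 0.1, so no pair could pass (adjusted p = 0.133 for those 9). All 3 cyclins had a lower ratio to Cdk1 in Malt1-WT, with no overlap of libraries. The log2 ratio of Ccna2 to Cdk1 was -0.38, -0.29 and -0.46 in Malt1-WT and 0.56, 0.50 and 0.43 in the vector control, a difference of -0.88, and the differences were -0.78 for Ccnb1 and -0.53 for Ccnb2. Securin to separase went the other way, with a log2 ratio of Pttg1 to Espl1 of 0.56, 0.36 and 0.52 in Malt1-WT and -0.53, -0.37 and -0.50 in the vector control, a difference of 0.95.

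Within the passenger complex, the ratios of Birc5 and Cdca8 to Incenp were lower in Malt1-WT with no overlap (differences of -0.63 and -0.47), while the Aurkb to Incenp ratio overlapped between groups (-0.12, exact permutation p = 0.3). In condensin I, the log2 ratio of Ncapd2 to Ncaph was 0.82, 0.90 and 0.67 in Malt1-WT and 1.55, 1.48 and 1.47 in the vector control, a difference of -0.70, whereas Ncapg to Ncaph (-0.15, exact permutation p = 0.3) and Smc2 to Smc4 (-0.02, exact permutation p = 0.7) overlapped. Tpx2 to Aurka and Racgap1 to Ect2 differed by 0.16 and 0.17, small shifts with no overlap of libraries. Counts were not divided by transcript length, so only the difference between groups is read, not the sign of a ratio. These ratios describe transcripts, and protein amounts were not measured.

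**Figure D3:**
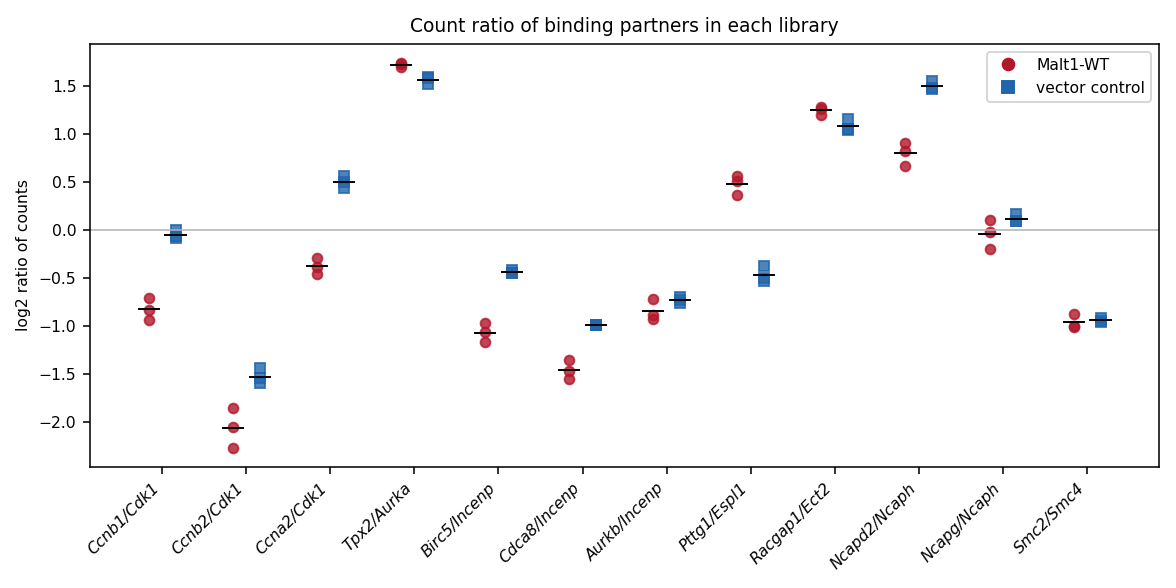
Log2 ratio of counts between 12 pairs of binding partners in each library, Malt1-WT as circles left of the vector control as squares, with short lines at the group means. The ratio crosses 0 in opposite directions for Ccna2/Cdk1 and Pttg1/Espl1, and Smc2/Smc4 is level between groups (difference -0.02). Counts are not divided by transcript length, so the side of 0 does not say which transcript is more abundant.

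Other genes of the same processes moved less uniformly, counted over 6 lists of 72 further genes. Of 17 genes of the anaphase-promoting complex and its regulators, 14 were lower, 1 (Anapc16, 0.25) higher and 2 not past the test, with a median log2 fold change of -0.27. The largest fall there was in Fbxo5 (-2.33), which encodes the inhibitor Emi1, at 12.8 ± 0.971 CPM in Malt1-WT and 63.9 ± 1.53 CPM in the vector control, followed by Cdc23 (-0.83) and Anapc15 (-0.65). Among 14 cohesin genes 9 were lower, 3 higher and 2 not past the test (median -0.28). The number called higher was 1 when scaled by library size only and 2 with DESeq2 or with no filter. It was 2 to 3 when a library was left out. The cohesin stabiliser gene Cdca5 (-1.45) and the S-phase acetyltransferase gene Esco2 (-1.29) fell most, while Esco1, the other acetyltransferase gene, was 0.41 higher.

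All 3 condensin II subunits were lower, with Ncapg2 at -1.06, Ncapd3 at -0.68 and Ncaph2 at -0.48. The list of mitotic entry inhibitors and phosphatase control also held Bora, which is neither. Of its 11 genes, 9 were lower, 1 (Cdc14a, 0.33) higher, a call lost without Malt1-WT replicate 1, and 1 not past the test (median -0.23). Mastl (-1.55), the Greatwall kinase that restrains the phosphatase PP2A in mitosis, Wee1 (-1.36), the kinase that inhibits Cdk1, and Bora (-1.22), the cofactor through which Aurka activates Plk1, fell most. Genes of DREAM, MuvB and the E2F4 partners were lower in 8 of 11 cases, with E2f5 (0.17) higher, a call lost in 8 of 13 alternative settings, and 2 not past it. The median of the 11 was -0.42, and Rbl2 (-0.82), Tfdp2 (-0.71) and Rbl1 (-0.63) changed most.

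Among 16 abscission and contractile ring genes, 4 were lower, 9 higher and 3 not past the test, with a median of 0.09. The number called higher was 7 with upper quartile scaling and 6 with library size only or with no filter. The ring myosin gene Myh9 was 0.43 higher at 1148 ± 19.8 CPM in Malt1-WT and 852 ± 18.9 CPM in the vector control. Myh10 was 1.82 higher but at 3.11 ± 0.124 CPM in Malt1-WT and 0.883 ± 0.289 CPM in the vector control, and Chmp6 (-0.50) fell most. Over all tested genes, 30.2% were called lower and 31% higher.

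**Figure D4:**
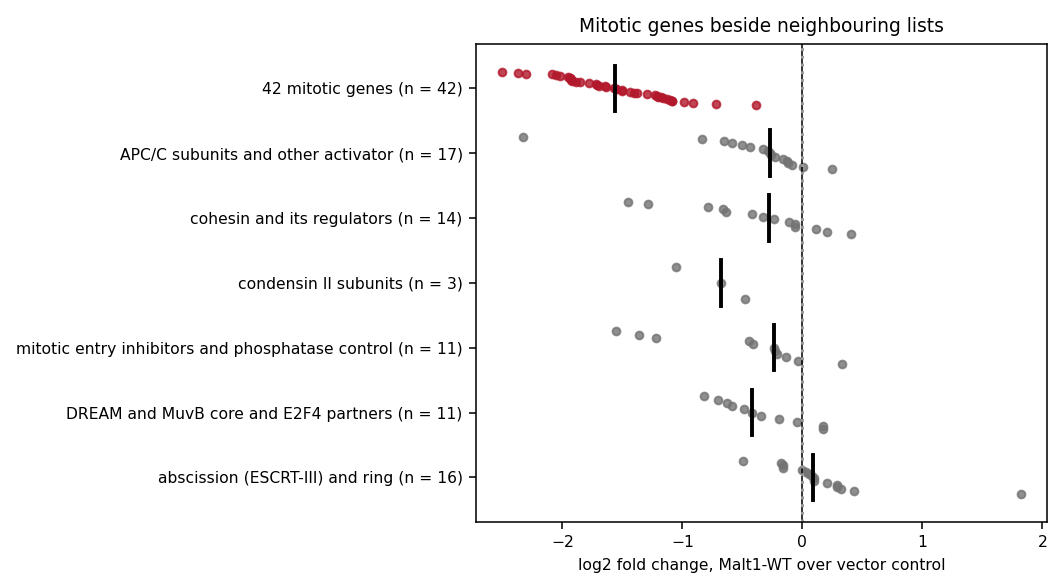
Log2 fold change of Malt1-WT over vector control for the 42 mitotic genes and for the 6 lists of other genes, 1 point per gene, with thick bars at the medians (-1.56 for the 42 genes, 0.09 for abscission and ring genes). The dotted line is the median of all tested genes.

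A promoter window was at hand for 34 of the 42 members. A CHR was found in 25 of 34 (73.5%), against 21.7% of the 27025 genes with a window and 16.6% of the 9611 tested genes with one. A CCAAT box was found in 27 (79.4%), against 41.1% of all genes with a window and 43.1% of those tested, and both elements in 23 (67.6%), against 8.61% of all genes with a window and 6.84% of those tested. E2F-type elements were found in 7 (20.6%), against 6.38% of all genes with a window and 11.2% of those tested. Within the last 150 bases of the window alone, 23 of 34 members (67.6%) held a CHR and 9.87% of all genes did. Mitotic genes are known for these elements, so a high share goes with the choice of genes. The members' shares come from reference sequence and are no result of the comparison of Malt1-WT with the vector control.

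Members with a CHR had a median log2 fold change of -1.65 (n = 25, from -2.50 to -0.91), and the 9 without one had -1.16 (from -1.95 to -0.38). Of the 5 genes not past 2-fold, only Aspm had a CHR match in its window, and Pttg1 and Mybl2 matched none of the 3 elements as searched. Among the members without a CHR, Ccnb1 had the largest fall (-1.95), with 2 CCAAT boxes at positions -99 and -67. Members with 2 or more CCAAT boxes numbered 18 of 34 (52.9%), against 16.6% of tested genes with a window. A same-strand pair spaced by 31 to 34 bases was held by 8 of 34 (23.5%), against 1.90% of tested genes with a window. Among genes with 2 or more boxes the contrast was smaller, 44.4% of members against 11.4% of tested genes. The 8 members with such a pair were Aurka, Ccnb1, Ccnb2, Cdca8, Cdk1, Hmmr, Nek2 and Ube2c. The spacing was chosen after the sequences were seen. A match of letters is not evidence of binding. Only the listed forms were searched, so a gene without a match may still hold the element in another form or outside the window.

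**Figure D5:**
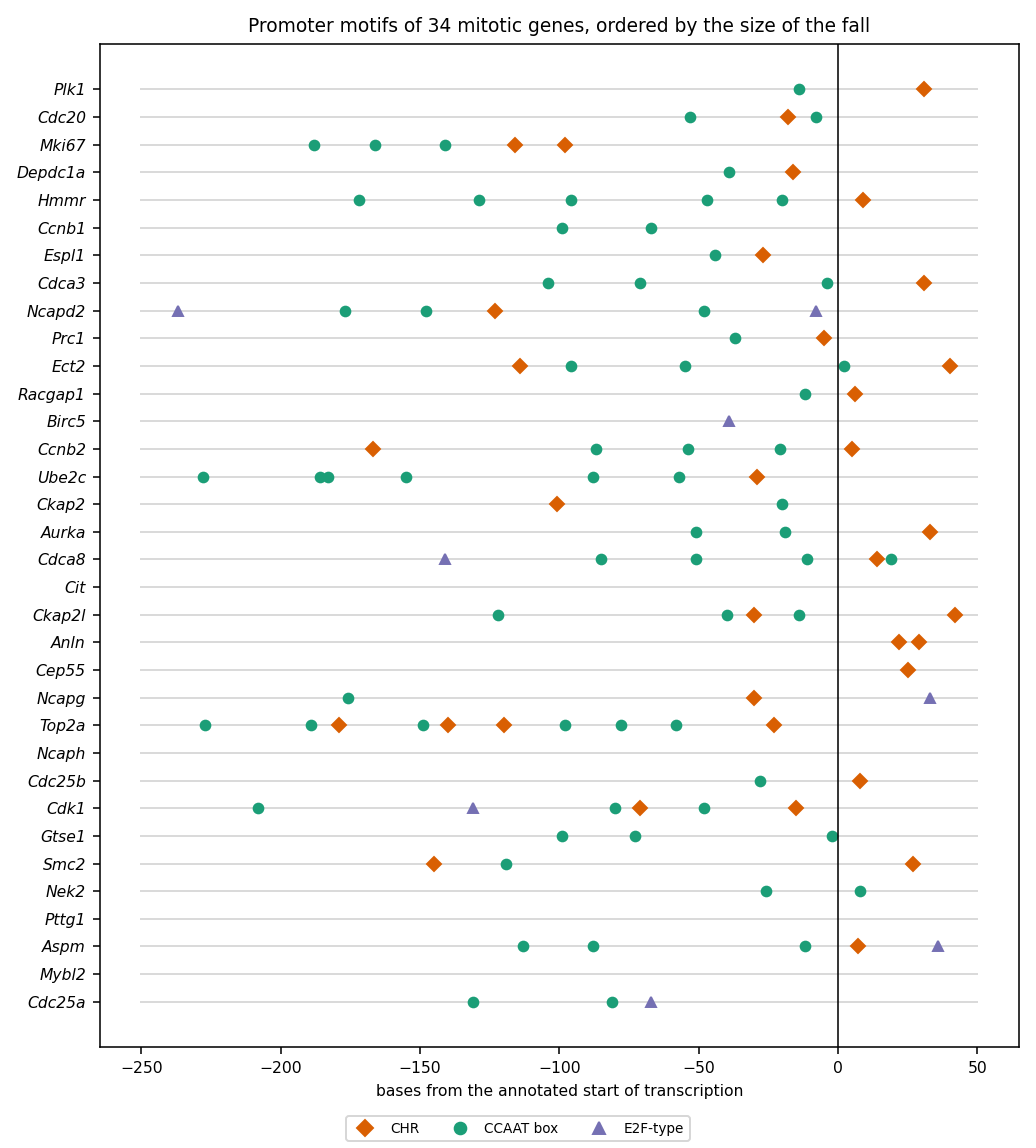
Positions of CHR, CCAAT and E2F-type matches, in bases from the annotated start, in 1 window for each of the 34 members, ordered from the largest fall (top) to the smallest. Cit, Ncaph, Pttg1 and Mybl2 hold no match, and most genes with a CHR have 1 near the start.

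In the authors' deposited table all 42 members had a negative log2 fold change, from -2.51 for Plk1 to -0.40 for Cdc25a. An adjusted p under 0.05 was reached by 30 of the 42 in the authors' deposited table, where 0.356% of its 55571 entries did so in that direction. Its t statistic was 0 for Aspm, Mybl2 and Cdc25a, all with an absolute log2 fold change under 1. For Pttg1, barely past 2-fold in that table, it was -0.0713. These values go with a test against a 2-fold change, although the sources used here do not name the authors' test. The count of 30 may thus stand beside the 37 members past 2-fold rather than the 42 called lower. It does not show that the remaining members were unchanged. Reads of 11 members can overlap a gene on the other strand, since the sources used here do not state the strand setting of the counting. The shared exon bases were at least 10% in 5 of them and highest for Ube2c (22.8%, with Tnnc2), the others being Ncapg, Cdc25c, Ccna2 and Prc1.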

How the data were processed

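The measurement was RNA sequencing of 6 E0771 libraries, whose sample titles give group and replicate number. RNA came from an RNAiso Plus extraction and a directional NEBNext library kit, per the labels' protocols. The submitters' processing notes name featureCounts 1.6.3, the aligner STAR 2.7.3a, the trimmer Trim Galore 0.6.0 and the build GRCm38.p6 (mm10). The authors deposited raw counts per gene symbol, per the file headers. The authors also deposited, per the file headers, a log2 fold change, a score (a t statistic), a p-value and an adjusted p-value from their own comparison, made with a tool not given in the sources used here.

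The count analysis used edgeR 4.0.16 (R 4.3.3): filterByExpr with a minimum count of 10 (13594 genes, all 42 members), TMM scaling, robust quasi-likelihood fits without a block, glmQLFTest, and glmTreat against 2-fold, with Benjamini-Hochberg adjustment over all tested genes and a threshold of 0.05. CPM are TMM-scaled and given as mean ± SD over 3 libraries. Each SE was derived as the absolute log2 fold change over the root of edgeR's F. DESeq2 1.42.0, other scalings and filters, a replicate block and leaving out each library were the alternatives. Partner ratios added 0.5 to each count. The tests were checked on simulated counts.

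Sampling noise alone was exceeded between libraries of a group (chi-square per degree of freedom 2.19 to 3.01, against 109 to 120 between groups). Nothing says that they came from separate cultures, so p-values cover only the spread among these libraries, and that spread may be technical. Gene positions and lengths came from GENCODE M21 (GRCm38), promoter windows from RefSeq (GRCm38.p6). The members, role groups and gene lists were chosen with earlier results of these data known. Per-library values are given for the 3 largest falls overall and for the 2 largest and the smallest change in each role group, and up to 3 called genes are named per further list. Other named genes, and the partner pairs, were chosen after their values were seen. A planned count of a protein motif was not run.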

Additional observations from a re-analysis of the deposited data

How the results depend on the processing

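The 42 members were called lower, and 0 higher, under all 13 alternatives, with adjusted p of at most 1.63e-06. The number past 2-fold was 37 and ran from 34 (DESeq2) to 38 (library size only), with 36 with the replicate block and 35 to 37 when a library was left out. All 42 calls were the same with the replicate block. The calls that moved were those of Nek2, past 2-fold in 1 setting, Incenp in 7, Gtse1 in 11 and Smc2 in 12 of 13. Same-numbered libraries did not visibly deviate together (correlations of -0.06, -0.04 and 0.03, against -0.04 to 0.08 for unlike numbers). With 3 libraries per group, centred within the group, these values cannot exclude that same-numbered libraries share a batch. The median log2 fold change of the members was -1.64 with library size only, which moves the median of all genes to -0.08, and -1.58 to -1.56 when a library was left out. With library size only, 5006 tested genes were called lower and 3528 higher, against 4110 and 4210. The cohesin genes called higher numbered 3, against 1 with library size only and 2 with DESeq2 or with no filter. When a library was left out they numbered 2 to 3. The DREAM gene called higher, E2f5, was not called (0 genes) with upper quartile scaling, library size only, DESeq2 or no filter, nor without Malt1-WT replicate 2 or 3 or vector control replicate 1 or 3 (0 to 1 genes over the left-out libraries). Cdc14a was not called without Malt1-WT replicate 1 (0 to 1 genes). The difference in the log2 ratio Smc2/Smc4, -0.02 with all libraries, was 0.000851 without Malt1-WT replicate 2 and 0.00347 without replicate 3, and ran from -0.064 to 0.00347 over the left-out libraries. With the union of exons as the length, 69 levels per length moved by more than 1 SD. The depth limited no member, since the lowest count of a member in a library was 159.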

Other observations

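Outside the 42 members, 634 tested genes held both a CHR and a CCAAT box in their promoter window. Of these, 265 were lower and 182 higher at an edgeR adjusted p under 0.05, and 43 were past 2-fold as lower and 29 as higher. Over all 13594 tested genes, 30.2% were lower and 31% higher, and 343 were past 2-fold as lower and 734 as higher. The largest falls, leaving out a predicted gene, were in Fam83d, a spindle protein gene (log2 fold change -2.72, 5.07 CPM in Malt1-WT and 33.5 CPM in the vector control), the matrix glycoprotein gene Thbs2 (-2.52, 14.2 CPM in Malt1-WT and 81.6 CPM in the vector control), the kinetochore gene Cenpf (-2.51), the Emi1 gene Fbxo5 (-2.33) and Prr11 (-2.22). These names were chosen after their values were seen. Over all 657 tested genes with both elements, the 23 members included, 43.8% were lower and 9.89% past 2-fold as lower (median log2 fold change -0.12). Of the 4652 tested genes with no match to either element, 29.8% were lower and 1.59% past 2-fold as lower, with a median of 0.02. Members made up 22 of the 65 genes with both elements past 2-fold as lower, and 3 of the 74 with neither. The contrast between the 2 shares thus rests in part on the members. These are counts of genes that share libraries and were chosen after the members' windows were read, with no test.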
